A study of Mus musculus with 31 samples.

Results

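Glycolysis splits glucose into pyruvate in the cytosol. Hexokinase traps glucose, phosphofructokinase commits it to the pathway, aldolase cleaves the sugar, and phosphoglycerate kinase, phosphoglycerate mutase, enolase and pyruvate kinase carry the products on to pyruvate with a gain of ATP. The retina is known for turning much of its glucose into lactate even when oxygen is present, and its photoreceptors are the main site of this aerobic glycolysis. The genes described here encode 10 named enzymes or isoforms of the pathway (Hk1, Hk2, Gpi1, Pfkl, Aldoa, Aldoc, Pgk1, Pgam1, Eno2 and Pkm), and the members are all array probes annotated with these symbols, with the older symbol Pkm2 read as Pkm. Probes were listed for 9 of the 10 genes, 10 probes in all of 25697, because Pfkl had 2. Gpi1, which encodes the isomerase between hexokinase and phosphofructokinase, had no listed probe and was not analysed here.

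RNA from whole retinas of C57BL/6J mice was hybridised to 31 single-colour Illumina arrays to set a genetic model of type 1 diabetes beside a chemical one after 3 months of hyperglycaemia. The Ins2Akita group (genotype Ins2Akita/Ins2, 9 arrays) carries 1 mutated copy of an insulin gene beside a normal copy, and its reference is the wild-type group (genotype Ins2/Ins2, 8 arrays). The STZ group (6 arrays) received streptozotocin, a toxin of the insulin-producing beta cells, and its reference is the untreated group labelled as control (8 arrays). Neither intervention is directed at the retina. Nothing in the labels says that arrays of a group came from separate mice, so the p-values below rest on a spread between samples that may be technical alone. In whole retina, fewer cells of a type and less RNA per cell cannot be told apart.

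All 10 probes were detected on all 31 arrays (detection p under 0.05) and were among the 16743 probes tested. Between 14581 and 16460 probes were detected per array. The tissue label was checked on markers: all 10 rod, 9 cone, 7 bipolar and 8 Müller glia markers with a probe were detected on every array, as were 8 of 10 amacrine and horizontal, 6 of 7 ganglion cell, 5 of 7 microglia and 5 of 7 endothelial markers. Of the rest of these, 2 amacrine and horizontal markers and 1 in each of the other 3 lists were detected on no array. Lens markers, which belong to a neighbouring tissue, varied between arrays within every group, with a mean log2 score of -0.88 ± 2.60 in Ins2Akita and 0.61 ± 2.38 in wild-type arrays, and of 0.90 ± 1.92 in STZ and -0.30 ± 2.49 in untreated arrays (SD). No BeadChip held more than 1 group, apart from that of the STZ arrays, which also held Ins2Akita replicate 9. BeadChip and group therefore cannot be told apart in either diabetes comparison. Wild-type replicate 5 stood apart from its group: 228 of its probes lay 1 log2 unit or more below the wild-type mean, against at most 54 on any other wild-type array. Its effect on Hk1 and Pgk1 is given beside their results.

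Levels below are log2 normalised intensities, with differences on the same scale, and no level is compared between probes. A difference was called at an adjusted p under 0.05 (limma, Benjamini-Hochberg over all 16743 probes).

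Many glycolysis genes in other tissues answer to hypoxia-inducible factor, which binds the core ACGTG. Searched on both strands in the 250 bases before each RefSeq start (assembly GRCm38.p6), this core stood in 16.6% of all 32851 promoter windows and in 6 of the 15 windows of the 10 genes. Overlapping Aldoa windows held the same site, which is thus counted more than once. Counted by gene, the core stood before at least 1 start of 5 of the 10 genes: Hk2, Aldoa, Pgk1, Pgam1 and Pkm, the Aldoa and Pkm matches at only some of their starts. The share by gene over all genes was not counted, and a gene with several starts has more chances of a match. No other form of the factor's site was searched. The stretches below are shown because they place the core in the 3 genes whose match does not depend on the choice among several starts. The Hk2 window held 2 matches, and its stretch shows only the 1 nearer the start. Capitals mark ACGTG or its reverse complement CACGT, each stretch is written 5′ to 3′ on the strand of its gene, and a match is a description of the letters only.
Hk2, chr6:82774462-82774546, minus strand: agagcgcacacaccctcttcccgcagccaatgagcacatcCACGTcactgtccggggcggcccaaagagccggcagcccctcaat
Pgk1, chrX:106186929-106187013, plus strand: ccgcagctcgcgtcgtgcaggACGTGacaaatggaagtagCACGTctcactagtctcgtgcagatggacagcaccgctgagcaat
Pgam1, chr19:41911717-41911801, plus strand: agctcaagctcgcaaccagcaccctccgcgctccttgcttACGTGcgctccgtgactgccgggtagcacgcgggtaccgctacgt
In Ins2Akita against wild-type retinas these 3 genes differed by 0.12, -0.28 and -0.22, and none of these differences was called.

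No glycolysis probe was called in either diabetes comparison. On simulated data the fit called 7.46% of log2 changes of 0.25, added to probes drawn from all those tested. That share was not worked out for the glycolysis probes, and the lack of a call alone does not exclude such a change. The unadjusted intervals of the fit bear on this by probe. They excluded 0.25 in both directions for Aldoa, Aldoc, Eno2 and Pkm in Ins2Akita (Pkm -0.09 to 0.16). In STZ they did so for Hk2, Aldoa, Aldoc, Pgam1 and Eno2. Every other member interval reached 0.25 in size. In Ins2Akita against wild-type retinas, 0 of 10 probes passed the adjusted test, where 4.16% of all probes did (1.76% higher and 2.4% lower), and 3 of 10 had an unadjusted p under 0.05, against 19.2% of all probes. In STZ against untreated retinas, 0 of 10 passed, against 0.0358% of all probes, and 2 of 10 had an unadjusted p under 0.05, against 8.55%. Differences stood above 0 for 4 probes and below 0 for 6 in each comparison. The median difference over the 9 genes, taking the brighter Pfkl probe, was -0.10 in Ins2Akita and -0.01 in STZ, beside medians over all probes of -0.000922 and -0.0127. The STZ median ran from -0.06 without STZ replicate 5 to 0.01 without untreated replicate 8, so its sign rested on single arrays. For 0 of 10 probes did the groups of either comparison lie fully apart, against 0.46% and 0.209% of all probes.

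**Figure D1:**
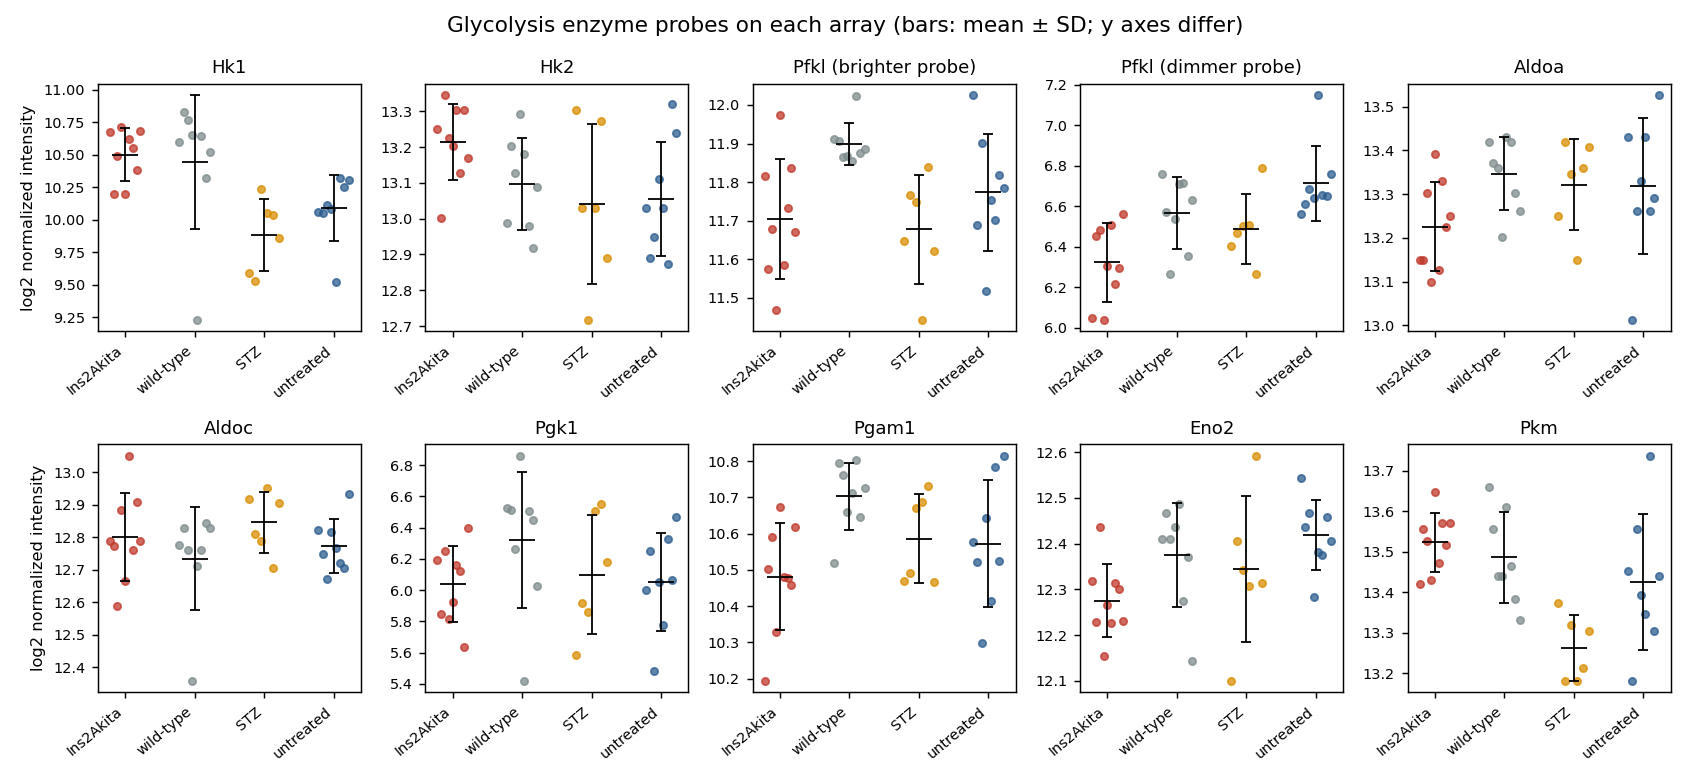
Log2 normalised intensity (y axis, a different range in each panel) of the 10 glycolysis probes on every array (points) in the Ins2Akita, wild-type, STZ and untreated groups, with bars for the mean ± SD. The groups of each diabetes comparison overlap in every panel, and wild-type replicate 5 is the lowest Hk1 and Pgk1 point.

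The hexokinases phosphorylate glucose on entry. Hk1 is the isoform of most brain tissue, and Hk2 is the one enriched in photoreceptors. Hk2 ranged from 13.002 to 13.35 in Ins2Akita arrays (median 13.23), against 12.92 to 13.29 in wild-type arrays (median 13.11). It ranged from 12.72 to 13.30 in STZ arrays (median 13.03), against 12.87 to 13.32 in untreated arrays (median 13.03). Of the 9 Ins2Akita arrays, 8 lay above the wild-type median and 3 above every wild-type array. The Ins2Akita difference was 0.12 (SE 0.0763, adjusted p = 0.420), and its 95% interval ran from -0.04 to 0.27. The STZ difference was -0.01 (SE 0.0848, adjusted p = 0.983), with an interval from -0.19 to 0.16.

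Hk1 ranged from 10.19 to 10.71 in Ins2Akita arrays (median 10.55), against 9.23 to 10.83 in wild-type arrays (median 10.62). The wild-type minimum was replicate 5, and the other 7 wild-type arrays lay at 10.32 or above. Hk1 ranged from 9.53 to 10.23 in STZ arrays (median 9.95), against 9.52 to 10.32 in untreated arrays (median 10.10). All arrays of the genetic comparison except wild-type replicate 5 were thus at 10.19 or above, and most arrays of the other pair were lower. The Ins2Akita difference was 0.06 (SE 0.154, adjusted p = 0.884) with all arrays and -0.12 without wild-type replicate 5, where it was again not called. In STZ arrays it was -0.21 (SE 0.172, adjusted p = 0.810), with an interval from -0.55 to 0.14.

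Pfkl encodes the liver-type subunit of phosphofructokinase, which together with the muscle and platelet types forms the enzyme of the committing step. Its brighter probe ranged from 11.47 to 11.97 in Ins2Akita arrays (median 11.68), against 11.86 to 12.02 in wild-type arrays (median 11.88). Of the 9 Ins2Akita arrays, 8 lay below every wild-type array, and replicate 5 was the exception. The difference was -0.19 (SE 0.0677, interval -0.33 to -0.06), a mean 12.6% lower, and its adjusted p of 0.0978 missed the threshold. The dimmer probe gave 6.04 to 6.56 in Ins2Akita arrays (median 6.31), against 6.27 to 6.76 in wild-type arrays (median 6.60). Its difference was -0.24 (SE 0.0890, adjusted p = 0.112), with 3 of 9 Ins2Akita arrays below every wild-type array and 0 above the wild-type median. Both probes thus had the same sign and neither was called.

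In the STZ comparison the brighter Pfkl probe ranged from 11.44 to 11.84 in STZ arrays (median 11.70), against 11.52 to 12.03 in untreated arrays (median 11.77). The dimmer probe ranged from 6.26 to 6.79 in STZ arrays (median 6.48), against 6.56 to 7.15 in untreated arrays (median 6.65), and 5 of 6 STZ arrays lay below every untreated array. The differences were -0.10 (adjusted p = 0.789) and -0.23 (adjusted p = 0.516). Pfkl was the one gene with both diabetic groups below their references on every probe it had and an unadjusted p under 0.05 in each comparison (0.00995 and 0.0297 for the dimmer probe), and no difference of it passed the adjusted test. Without Ins2Akita replicate 5, the brighter probe was called lower in Ins2Akita retinas (-0.23, adjusted p = 0.0422).

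The aldolases split fructose 1,6-bisphosphate. Aldoa is the widely expressed muscle type, and Aldoc is the brain type, which is strong in glia. Aldoa ranged from 13.10 to 13.39 in Ins2Akita arrays (median 13.23), against 13.20 to 13.43 in wild-type arrays (median 13.37). It lay between 13.15 and 13.42 in STZ arrays (median 13.35), against 13.01 and 13.53 in untreated arrays (median 13.31). Its Ins2Akita difference was -0.12 (SE 0.0609, adjusted p = 0.275), with 4 of 9 arrays below every wild-type array, and its STZ difference was 0.00 (SE 0.0677, adjusted p = 0.996). Aldoc ranged from 12.59 to 13.05 in Ins2Akita arrays (median 12.79), against 12.36 to 12.84 in wild-type arrays (median 12.77). In STZ arrays Aldoc lay between 12.71 and 12.95 (median 12.86), against 12.67 and 12.93 in untreated arrays (median 12.76). The Aldoc differences were 0.07 in both comparisons (adjusted p = 0.604 in Ins2Akita and 0.848 in STZ). The upper ends of their 95% intervals were 0.20 and 0.22. Without wild-type replicate 4, the lowest array, the Ins2Akita difference was 0.01.

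Phosphoglycerate kinase makes ATP from 1,3-bisphosphoglycerate, and phosphoglycerate mutase then shifts the phosphate. Pgam1 ranged from 10.19 to 10.67 in Ins2Akita arrays (median 10.48), against 10.52 to 10.80 in wild-type arrays (median 10.72). Of the Ins2Akita arrays 6 of 9 lay below every wild-type array and 0 of 9 above the wild-type median. The difference was -0.22 (SE 0.0706, interval -0.37 to -0.08, adjusted p = 0.0683), which had the lowest adjusted p of any member in either diabetes comparison and was not called. Without Ins2Akita replicate 5 Pgam1 was called lower (-0.25, adjusted p = 0.0443). In STZ arrays Pgam1 ranged from 10.47 to 10.73 (median 10.58), against 10.30 to 10.82 in untreated arrays (median 10.55), a difference of 0.01 (SE 0.0785, adjusted p = 0.983).

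Pgk1 had a dim and variable probe. It ranged from 5.64 to 6.40 in Ins2Akita arrays (median 6.12), against 5.42 to 6.86 in wild-type arrays (median 6.48). It ranged from 5.58 to 6.55 in STZ arrays (median 6.05), against 5.48 to 6.46 in untreated arrays (median 6.06). The groups overlapped over most of their ranges, although 0 of 9 Ins2Akita arrays lay above the wild-type median. The Ins2Akita difference was -0.28 (SE 0.160, adjusted p = 0.345), the largest in size among the members in that comparison. Its interval, from -0.61 to 0.04, was also the widest. Without wild-type replicate 5, which gave the wild-type minimum, the Ins2Akita difference was -0.41 (adjusted p = 0.103) and was again not called. The STZ difference was 0.05 (SE 0.177, adjusted p = 0.974).

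Eno2 encodes neuron-specific enolase. It ranged from 12.15 to 12.44 in Ins2Akita arrays (median 12.27), against 12.14 to 12.49 in wild-type arrays (median 12.41). It ranged from 12.10 to 12.59 in STZ arrays (median 12.33), against 12.28 to 12.54 in untreated arrays (median 12.42). In each diabetic group 1 array lay above the median of its reference. The differences were -0.10 (SE 0.0581, adjusted p = 0.359) in Ins2Akita and -0.08 (SE 0.0645, adjusted p = 0.816) in STZ. The STZ value was -0.03 without STZ replicate 1 and -0.13 without STZ replicate 5.

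Pkm encodes pyruvate kinase, the last step of the pathway, whose M2 form is known from photoreceptors. It ranged from 13.42 to 13.65 in Ins2Akita arrays (median 13.53), against 13.33 to 13.66 in wild-type arrays (median 13.45), a difference of 0.04 (SE 0.0614, adjusted p = 0.791). In STZ arrays it ranged from 13.18 to 13.37 (median 13.26), against 13.18 to 13.74 in untreated arrays (median 13.42). The deposited intensity averaged 9515 ± 350 in STZ arrays (n = 6) and 10850 ± 1101 in untreated arrays (SD, n = 8). No STZ array lay above the untreated median, and the difference was -0.16 (SE 0.0683, interval -0.30 to -0.03), with an adjusted p of 0.463. Pkm was the 1 member of 10 whose Ins2Akita and STZ arrays did not overlap, where 3.79% of all probes were apart. Ins2Akita replicate 9, which shared the BeadChip of the STZ arrays, had a Pkm level of 13.57, above the highest STZ array at 13.37. On the same BeadChip its Hk1 level was 10.68, against a highest STZ value of 10.23. On every other member probe that array lay within the STZ range, and 1 array cannot separate BeadChip from group.

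By group mean from high to low, Hk1, Hk2 and Pkm ran in the order Ins2Akita, wild-type, untreated and STZ. Aldoa, Pgk1 and Pgam1 ran in the order wild-type, STZ, untreated and Ins2Akita. The order was untreated, wild-type, STZ and Ins2Akita for Eno2 and the dimmer Pfkl probe, wild-type, untreated, Ins2Akita and STZ for the brighter Pfkl probe, and STZ, Ins2Akita, untreated and wild-type for Aldoc. In none of the 10 orders did 2 neighbouring groups differ by more than the larger of their SDs. The largest neighbouring step was that of Hk1 between untreated and wild-type arrays, with means of 10.09 ± 0.254 in untreated and 10.44 ± 0.515 in wild-type arrays (SD, n = 8 each).

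**Figure D2:**
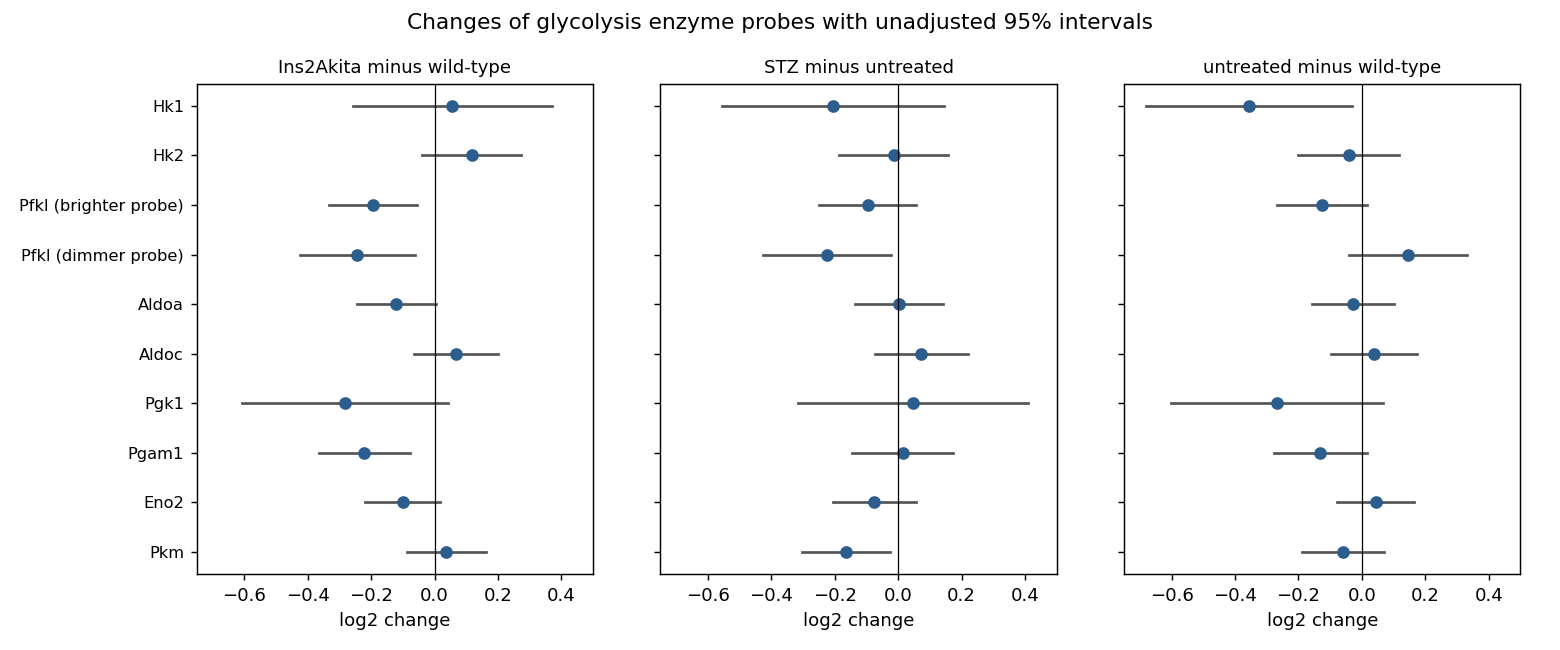
Log2 differences (x axis) of the 10 glycolysis probes in Ins2Akita minus wild-type, STZ minus untreated and untreated minus wild-type retinas, with lines for the unadjusted 95% intervals of the limma fit. Pfkl and Pgam1 lie left of 0 in the first panel and Pkm and the dimmer Pfkl probe in the second, and no point passed the adjusted test.

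Whether the genetic and the chemical model differed was tested on the difference between their changes. No member was called (0 of 10, against 0.0179% of all probes, 0.0119% above 0 and 0.00597% below), and 2 of 10 had an unadjusted p under 0.05, against 8.65% of all probes. These were Pgam1, at -0.24 (interval -0.45 to -0.02, adjusted p = 0.540), and Pkm, at 0.20 (interval 0.01 to 0.39, adjusted p = 0.545). For Pgam1 the Ins2Akita change was -0.22 and the STZ change 0.01, whereas for Pkm they were 0.04 and -0.16. The widest interval of this difference belonged to Pgk1, from -0.82 to 0.16.

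The untreated and wild-type groups are both non-diabetic C57BL/6J retinas on different BeadChips, and their difference gives the background between the study's pairs. Here 22.2% of all probes were called and 0 of 10 glycolysis probes, 1 of which (Hk1) had an unadjusted p under 0.05, against 34.4% of all probes. The groups lay apart for 0 of 10 members and 3.18% of all probes. The Hk1 difference was -0.36 (SE 0.159, adjusted p = 0.107), and no untreated array exceeded the wild-type median. This value depended on 1 array: without wild-type replicate 5, Hk1 was called lower in untreated retinas (-0.53, adjusted p = 0.00112), as was Pgk1 (-0.40, adjusted p = 0.0484). Hk1 was also called with arrays weighted by quality (-0.46, adjusted p = 0.0181) and with median scaling (-0.43, adjusted p = 0.0316). For Hk1, the difference between the non-diabetic groups was larger in size than that of either diabetic group from its reference.

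With group means removed, the 36 pairs among the 9 genes had a median correlation across the 31 arrays of 0.05, beside 0.00609 over all gene pairs, and 20 of 36 were above 0. The glycolysis genes thus shared little of their variation between arrays. Hk1 and Pgk1 had the highest value (r = 0.658, permutation p = 0.00016, adjusted over 36 pairs 0.00576), with a Spearman rho of 0.497 (permutation p = 0.00501, adjusted 0.0647). Without the 2 arrays farthest from the median in Hk1, wild-type replicate 5 and untreated replicate 5, r was 0.428 (permutation p = 0.0211) and rho 0.414 (permutation p = 0.0263). Both of these p-values are unadjusted for the choice of this pair as the highest of 36. Values were permuted across all arrays, although the Hk1 spread differed between groups. Within groups, and so within a BeadChip for all but 1 array, r was 0.512 in Ins2Akita (rho 0.333), 0.825 in wild-type (rho 0.548), 0.499 in STZ (rho 0.257) and 0.525 in untreated arrays (rho 0.571). The wild-type value rested on replicate 5, and over the other 7 wild-type arrays r was 0.166 and rho 0.321. The lowest pair was Aldoc, the brain-type aldolase, and Eno2, the neuron-specific enolase, with r = -0.445 (adjusted permutation p = 0.128).

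**Figure D3:**
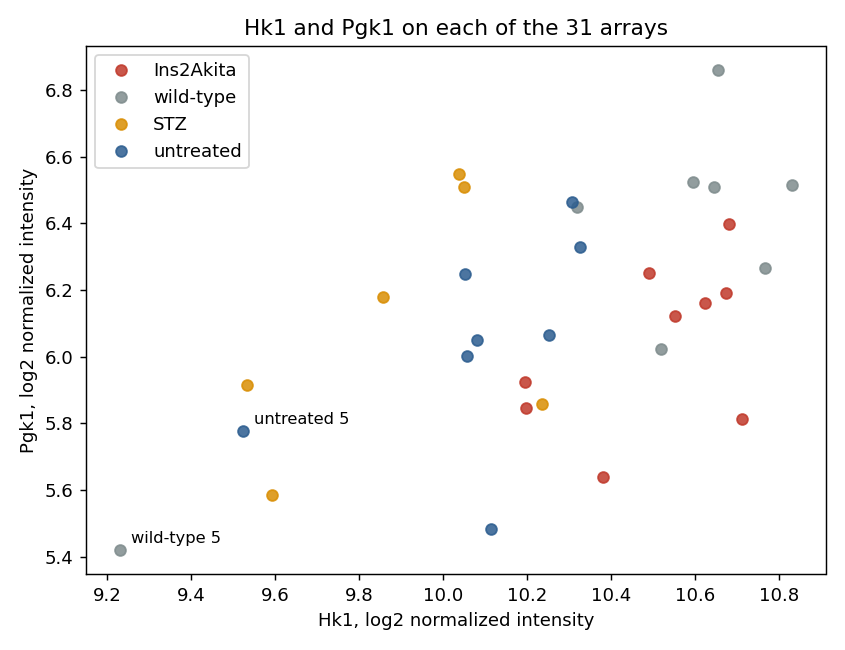
Log2 normalised intensity of Pgk1 (y axis) against Hk1 (x axis) on each of the 31 arrays (points, coloured by group: Ins2Akita, wild-type, STZ, untreated). Wild-type replicate 5 lies lowest in both genes, and the correlation with group means removed was 0.658 with it and 0.459 without it.

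Cell type markers varied with some members across arrays (group means removed, n = 31, a description in which all points share the same normalisation). Pkm had r = 0.680 with the mean of the rod markers, -0.482 with Müller glia markers and -0.451 with lens markers. Aldoc had r = 0.486 with Müller glia markers, and Aldoa had r = -0.556 with the number of detected probes. These were picked, with their values known, from all members set against all marker lists. Among the others, Pgk1 had r = -0.458 with microglia markers and Hk1 0.378 with Müller glia markers. With rod markers Aldoa had r = 0.432 and Hk2 0.322. The rod score was 0.00587 ± 0.0690 in STZ and 0.0360 ± 0.0658 in untreated arrays, and the lens score lay between -0.35 and 4.63 in STZ arrays, against -3.65 and 4.87 in untreated arrays. Their part in the Pkm values was not tested.

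By the profile across the 31 arrays with group means removed, the genes most like the mean of the 9 members were Mtcp1 (r = 0.829), Cacng3 (r = 0.800), Spock2 (r = 0.791), Elmod3 (r = 0.781) and Rasgef1b (r = 0.778). Without wild-type replicate 5 these values were 0.780, 0.734, 0.714, 0.705 and 0.695. All values here are the highest in a search over 11172 genes, where selection alone can give high values. The gene most like Pgk1 was Ranbp6 (r = 0.918, and 0.883 without wild-type replicate 5). Hk1 was most like Gigyf2 (r = 0.869, and 0.727 without that array). The other nearest genes were Bzw2 for Hk2 (0.680), Clta for Pfkl (0.800), Guca1a for Aldoa (0.689), Apip for Aldoc (0.704), Cuedc2 for Pgam1 (0.688), Tcea2 for Eno2 (0.789) and Pofut2 for Pkm (0.656). No glycolysis gene was the nearest gene of another, which says little, because the members are very few among the genes searched.

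The remaining enzymes of glycolysis, on the brightest probe of each gene, had 0 of 10 measured genes called in either diabetes comparison. Their median difference was -0.09 in Ins2Akita and -0.05 in STZ. Gapdh, the dehydrogenase that makes NADH, differed by -0.04 in Ins2Akita (adjusted p = 0.664) and 0.02 in STZ (adjusted p = 0.961), on its brightest probe. A second probe had the opposite signs, 0.15 (adjusted p = 0.101) and -0.11 (adjusted p = 0.619). The Ins2Akita value of the brightest probe turned to 0.16 with median scaling (adjusted p = 0.293) and to 0.21 with the series matrix values, where it was called (adjusted p = 0.0168). Mouse Gapdh has near-identical copies in the genome, so its values are uncertain. The other phosphofructokinase subunits gave -0.14 for Pfkm (adjusted p = 0.107) and 0.16 for Pfkp (adjusted p = 0.629) in Ins2Akita, and -0.06 (adjusted p = 0.826) and -0.05 (adjusted p = 0.974) in STZ. Their other probes did not all share these signs: in Ins2Akita Pfkp also gave -0.17 (adjusted p = 0.727), and Pfkm gave -0.24 (adjusted p = 0.557) and 0.05 (adjusted p = 0.765). Eno1b, a near-identical copy of the ubiquitous enolase Eno1, averaged 10.15 ± 0.0744 in STZ (n = 6) and 10.53 ± 0.140 in untreated arrays (SD, n = 8), and every STZ array lay below every untreated array. The adjusted p of this difference of -0.39 was 0.0671, and the probe may read either copy. Eno1 itself had no listed probe.

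Tpi1, the isomerase that brings both aldolase products into the rest of the pathway, had 3 probes that disagreed. Its brightest probe differed by 0.08 in Ins2Akita (adjusted p = 0.590). A second probe ranged from 12.35 to 12.72 in Ins2Akita arrays (median 12.42), against 12.55 to 12.93 in wild-type arrays (median 12.69), and was called lower (-0.25, SE 0.0591, adjusted p = 0.0147). The third differed by 0.05 (adjusted p = 0.802). The second probe was called lower in 10 of 11 other settings and in all 31 fits with an array left out. Its call was lost with BeadChip as a random block (-0.24, adjusted p = 0.0538), and its STZ difference was 0.01 (adjusted p = 0.986).

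Around the pathway, the 5 further lists held 38 measured genes, of which 1 was called in Ins2Akita and 0 in STZ, and 1 of 38 is no larger a share than the 4.16% of all probes. The 1 call was Slc16a3, a lactate exporter of glycolytic cells. It ranged from 4.78 to 5.26 in Ins2Akita arrays (median 5.12), against 5.06 to 5.70 in wild-type arrays (median 5.53), and was detected on 7 of 9 and 8 of 8 arrays. The difference was -0.36 (SE 0.102, adjusted p = 0.0410), and a second probe gave -0.34 (adjusted p = 0.0323). Slc16a3 was also lower in untreated than in wild-type arrays on the brightest probe (-0.40, adjusted p = 0.00628) but was not called on the second (-0.21, adjusted p = 0.118). In STZ the probes had opposite signs, 0.17 (adjusted p = 0.735) and -0.06 (adjusted p = 0.928). On the brightest probe, the Ins2Akita call did not hold with BeadChip as a random block (-0.35, adjusted p = 0.112), neighbouring-tissue scores (-0.33, adjusted p = 0.106), median scaling (-0.36, adjusted p = 0.0578) or the replicate block (-0.38, adjusted p = 0.0572). With offset 50 it was called at a smaller difference (-0.19, adjusted p = 0.0439). Nor did it hold without any 1 of 11 arrays: wild-type replicates 1, 3, 4, 5 and 6 and Ins2Akita replicates 1, 2, 3, 4, 5 and 7 (-0.32 to -0.36, adjusted p = 0.0520 to 0.0954). In Ins2Akita the brightest probe was thus called in 6 of 10 other settings, and the second probe in 8 of 10. With each array left out, the second probe was called in 24 of 31 fits.

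The other lists had no call. Slc2a1, the main glucose transporter of the retinal barrier, gave 0.28 in Ins2Akita (SE 0.0957, adjusted p = 0.0907) and 0.33 in STZ (SE 0.106, adjusted p = 0.282). Ldha, the lactate dehydrogenase subunit, gave -0.05 (adjusted p = 0.694) and -0.01 (adjusted p = 0.983). Pdk1, which restrains pyruvate entry into mitochondria, gave 0.09 (adjusted p = 0.641) and 0.25 (adjusted p = 0.458). Pfkfb3, which makes the activator of phosphofructokinase, gave 0.27 (adjusted p = 0.129) and -0.00403 (adjusted p = 0.996). It was called higher in untreated than in wild-type retinas (0.44, adjusted p = 0.00298). Slc16a8, a lactate exporter of the pigment epithelium, gave 0.72 in Ins2Akita (SE 0.433, adjusted p = 0.378), where the mean score of pigment epithelium and melanocyte markers was 0.35 ± 0.945 in Ins2Akita and -0.31 ± 1.02 in wild-type arrays (SD). The part of that tissue in the value was not tested. Ldhb had no listed probe, and the Pdk4 probe was detected on 1 array and was not tested.

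**Figure D4:**
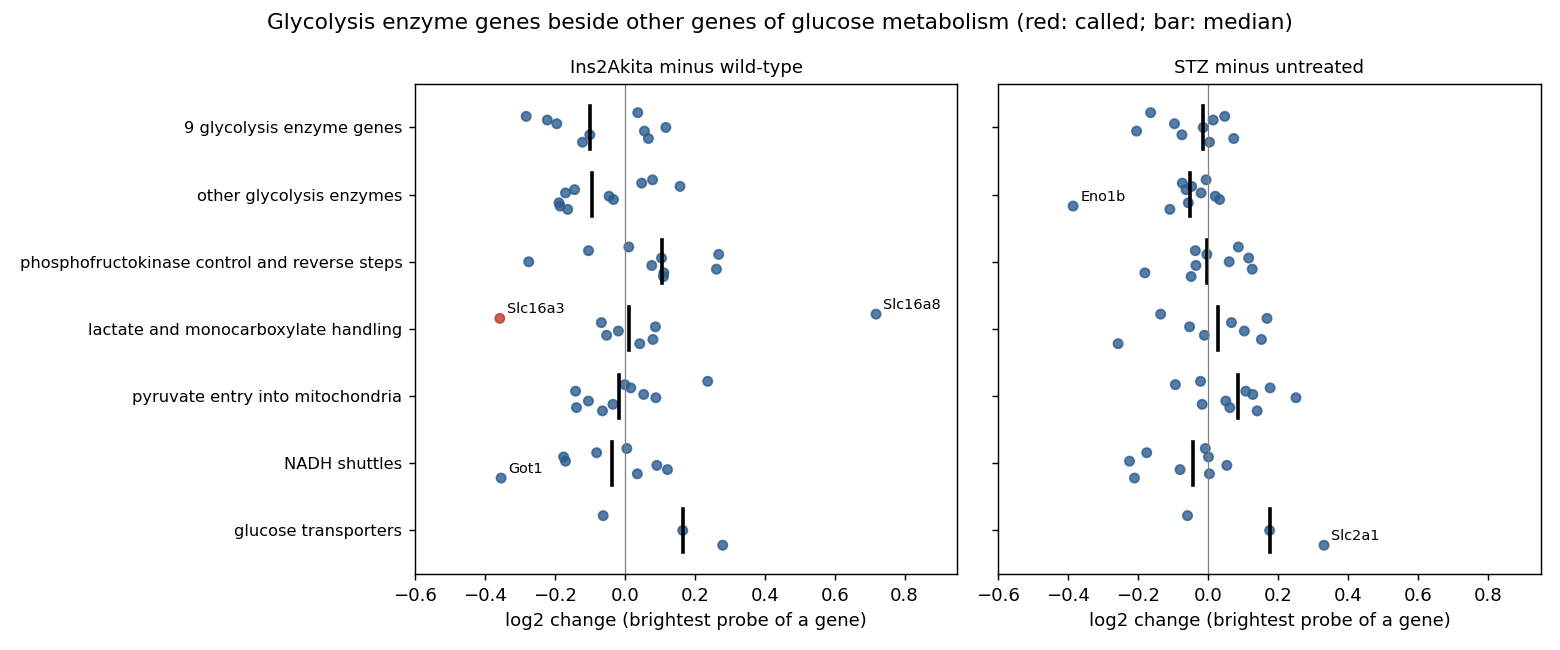
Log2 difference of each gene on its brightest probe (x axis; points, red where called at an adjusted p under 0.05) in Ins2Akita minus wild-type and STZ minus untreated retinas, by list (rows), with a bar for the list's median. The 9 glycolysis genes spread around medians of -0.10 and -0.01, Slc16a3 is the 1 called gene, and Slc16a8 (0.72, adjusted p = 0.378), Got1 (-0.35, adjusted p = 0.0845), Eno1b and Slc2a1 are named for their size, chosen after their values were seen.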

How the data were processed

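Retinal RNA was labelled as cRNA for Illumina arrays, per the labels' protocols. BeadStudio is named in the submitters' processing notes, with a version not given in the sources used here. The authors deposited linear intensities per probe, which from the values were background-subtracted and scaled to a mean of 351.836 on every array, and a detection p-value per probe. The deposited series matrix held the same intensities without background subtraction, scaled to a mean of 403.64, with column medians of 74.0152 to 95.7908. On each array the tables were linearly related, so its scale is linear and it is neither centred nor signed.

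The intensities were corrected and quantile-normalised with neqc (limma 3.58.1, R 4.3.3, offset 16) to log2 values, whereas the deposited values are not on a log2 scale. Very bright probes take shared values by rank after this step. Probes with a detection p under 0.05 on 6 or more arrays were kept (16743 of 25697). One limma fit of the 4 group means over 31 arrays gave all differences. Group and replicate number came from the sample titles. Single-array scores are means of log2 values centred per gene. Gene symbols came from GEO's platform annotation, updated through Entrez: 23978 probes had 1 symbol, 0 several and 1719 none. Promoter windows are those of RefSeq. The number of arrays limits the precision. The fit was tested on simulated data, with changes added to probes drawn from all those kept. Of log2 changes of 0.25 it called 7.46% in each diabetes comparison. Of changes of 0.5 it called 77.6% in Ins2Akita and 64.2% in STZ.

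The members and lists were chosen with earlier results of these data known. Named genes were all member probes, genes of the other lists that were called, a fixed set of 11 (Gapdh, Tpi1, Eno1, Pfkm, Pfkp, Ldha, Ldhb, Slc2a1, Pdk1, Pdk4, Pfkfb3), near-identical copies, and the most alike profiles. Alternatives were median scaling, series matrix values, offset 50, 2 detection filters, the compared groups alone, all probes of a gene averaged, array weights, a robust prior, BeadChip and replicate blocks, neighbouring-tissue scores, and each array left out.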

Additional observations from a re-analysis of the deposited data

Results flagged for a closer look

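In 5 of 40 groups of member values, 1 array lay farther from the rest than Dixon's 95% critical value allows, and chance alone flags about 1 group in 20. Wild-type replicate 5 had an Hk1 level of 9.23, with the next at 10.32, and untreated replicate 5 had 9.52, with the next at 10.05. Wild-type replicate 6 had the highest level of the brighter Pfkl probe, 12.02, with the next at 11.91. Untreated replicate 5 was highest for the dimmer Pfkl probe, at 7.15, with the next at 6.76. For Aldoc, wild-type replicate 4 was lowest, at 12.36, with the next at 12.71.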

How the results depend on the processing

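Of 430 member values under other settings, 4 were called and 12 changed sign, and of 1240 with an array left out, 4 were called. With median scaling, 0 other pathway genes were called lower in Ins2Akita. In untreated minus wild-type it called 1 member, Hk1, lower, and of the other genes 1 higher (Pfkfb3) and others lower, with a member median of -0.21. Differences there turned to -0.0206 for Pkm and 0.164 for Gapdh in Ins2Akita, and to -0.0161 for Aldoa, -0.0487 for Gapdh and -0.00253 for the second Tpi1 probe in STZ. In untreated minus wild-type they turned to -0.0701 for Aldoc, -0.0485 for Eno2, 0.0241 for Gapdh and -0.00663 for Eno1b. With the series matrix values, 2 members (the dimmer Pfkl probe, -0.27, adjusted p = 0.00252, and Pgam1, -0.21, adjusted p = 0.0211), 2 other genes higher and 6 lower were called in Ins2Akita, where 23.6% of all probes were called. Differences turned to 0.212 for Gapdh, which was called, and -0.0371 for Pfkfb3 in Ins2Akita, to -0.0102 for Aldoa, -0.00623 for Pgk1 and -0.0426 for Gapdh in STZ, to 0.0161 for Aldoc between the models, and to 0.110 for Gapdh between the non-diabetic groups. Offset 50, array weights and the robust prior each called 1 other gene, Eno1b, lower in STZ, as did leaving out wild-type replicate 7, Ins2Akita replicate 5 or untreated replicate 3. With detection on all arrays, or BeadChip as a random block, 0 other genes were called lower in Ins2Akita and 1 was called higher in untreated minus wild-type, as was 1 with the compared groups alone. With neighbouring-tissue scores, 0 other genes were called lower in Ins2Akita, and differences turned to 0.00492 for the brightest Tpi1 probe, 0.00522 for Ldha and 0.0828 for Pfkfb3 in STZ, and to 0.00530 for the dimmer Pfkl probe and 0.0244 for Aldoc between the models. Array weights turned Hk1 to -0.0627 and the third Tpi1 probe to -0.0140 in Ins2Akita. In STZ they turned Pgk1 to -0.00514, Pgam1 to -0.00900, the brightest Tpi1 probe to 0.0603, Ldha to 0.0161 and Pfkfb3 to 0.0170, and they called 1 member between the non-diabetic groups. The cause was not tested in any of these.

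With each array left out in turn, called members numbered 0 to 2 in Ins2Akita and 0 to 2 in untreated minus wild-type. Other genes called numbered 0 to 1 higher and 0 to 2 lower in Ins2Akita, 0 to 1 lower in STZ, and 1 to 2 higher and 5 to 10 lower in untreated minus wild-type. The member median in STZ ran from -0.0610 to 0.0117. Ins2Akita differences ran from -0.117 to 0.111 for Hk1 and -0.00609 to 0.0826 for the third Tpi1 probe. STZ differences ran from -0.0669 to 0.0503 for Hk2, -0.0403 to 0.0382 for Aldoa, -0.0427 to 0.150 for Pgk1, -0.0252 to 0.0486 for Pgam1, -0.00712 to 0.0717 for Gapdh, -0.0374 to 0.0118 for Ldha, -0.0435 to 0.0522 for Pfkfb3, -0.158 to 0.0530 for Pfkp, -0.111 to 0.0122 for the second Slc16a3 probe, -0.0510 to 0.0562 for the brightest and -0.0168 to 0.0482 for the second Tpi1 probe. Between the models they ran from -0.0812 to 0.0413 for the dimmer Pfkl probe, -0.0591 to 0.0212 for Aldoc and -0.0734 to 0.0251 for Eno2. In untreated minus wild-type they ran from -0.0577 to 0.0159 for Aldoa, -0.0144 to 0.0551 for Aldoc, -0.0241 to 0.0137 for Gapdh, -0.0475 to 0.00262 for Ldha, -0.152 to 0.0498 for Pfkp and -0.0879 to 0.00792 for Slc2a1. The 2 arrays that decided a member's call were wild-type replicate 5 and Ins2Akita replicate 5.

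The replicate number as a block left 0 members called in every comparison. Same-numbered arrays did not deviate together (3 of 8 pairs above a correlation of 0.1 in the genetic comparison and 1 of 6 in the chemical one), so the numbers were not taken to pair the samples. With the block, the brightest Slc16a3 probe missed the threshold in Ins2Akita (-0.38, adjusted p = 0.0572). Low signal over background limits Pgk1, the dimmer Pfkl probe, Slc16a3 and Pfkfb3.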
